A study of Mus musculus with 6 samples.

Results

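The genes of the phagocyte NADPH oxidase were examined in RNA-seq of mouse RPE-choroid, the retinal pigment epithelium (RPE) with the vascular choroid beneath it. The set held 8 of the 15663 genes listed in each library. It was set by gene symbol and not by a cut on measured values, though earlier results of these data were known then. Cybb encodes gp91phox (NOX2), the catalytic subunit, and Cyba encodes p22phox, its membrane partner. Ncf1 (p47phox) and Ncf4 (p40phox) encode cytosolic subunits, Rac1 and Rac2 encode the small GTPases of the complex, and Hvcn1 encodes the voltage-gated proton channel of phagocytes. Nox4, the catalytic subunit of an oxidase found in many non-phagocytic cells, was included as a contrast.

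In resting phagocytes the NOX2 and p22phox proteins sit in the membrane while subunits such as p47phox and p40phox stay in the cytosol. After stimulation the cytosolic proteins and GTP-bound Rac join the membrane pair, and electrons from NADPH are passed across the membrane to oxygen, which makes superoxide. HVCN1 lets protons follow the electrons and so keeps the oxidase running. NOX4 also needs p22phox but works without the cytosolic subunits or Rac, and mainly gives hydrogen peroxide.

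Libraries came from the RPE-choroid of 3 untreated control mice and 3 mice with subretinal fibrosis (SRF), all labelled C57BL/6 and described in the study's methods as C57BL/6J, male and 8 to 10 weeks old. The SRF eyes received 4 laser burns each, a second laser burn on every lesion 10 days later, and were collected 20 days after the second laser. The controls had no laser, so the comparison holds the lesion and the laser injury together. The labels name no deleted gene or transgene in either group.

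Total counts over the listed genes lay between 13667310 and 24356023 per library. The 12 RPE marker genes were all listed, with a summed level of 32530 to 55480 CPM (counts scaled to a common library size, with TMM factors of 0.978 to 1.03). Photoreceptor marker genes summed to 14810 CPM in control mouse 1 and 14330 CPM in SRF mouse 3, against 848 to 2036 CPM in the other 4 libraries, so these 2 libraries stood apart and values without them are given below. A gene was tested when 2 or more libraries held over 50 of its reads, which 13454 genes met. Calling needed a Benjamini-Hochberg adjusted p under 0.05 together with a log2 difference of 0.5 or more. By edgeR's quasi-likelihood test 0 genes were called, and 943 (7.01%) had an unadjusted p under 0.05. DESeq2 called 153 on the same counts and limits.

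The starts of the 2 catalytic subunit genes are shown because Cybb and Nox4 are the pair contrasted throughout. Each window runs from 250 bases before to 30 bases after the RefSeq transcription start on GRCm38.p6. The window is chrX:9469295-9469574 on the minus strand for Cybb and chr7:87246399-87246678 on the plus strand for Nox4. The capitals mark GAGGAA, the core recognised by the myeloid factor PU.1, which was read here on the opposite strand, at bases 10 to 15 after the start of Cybb.
Cybb: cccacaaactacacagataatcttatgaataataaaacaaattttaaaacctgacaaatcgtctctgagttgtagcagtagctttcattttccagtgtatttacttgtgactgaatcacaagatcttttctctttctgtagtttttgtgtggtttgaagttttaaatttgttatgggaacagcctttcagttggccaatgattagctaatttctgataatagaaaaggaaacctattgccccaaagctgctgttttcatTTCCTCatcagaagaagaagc
Nox4: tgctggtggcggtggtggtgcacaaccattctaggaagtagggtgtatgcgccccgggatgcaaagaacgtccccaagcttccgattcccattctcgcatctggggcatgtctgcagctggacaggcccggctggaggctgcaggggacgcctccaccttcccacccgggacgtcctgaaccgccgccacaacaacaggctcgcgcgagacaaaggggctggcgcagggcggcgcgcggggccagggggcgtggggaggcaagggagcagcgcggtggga
Both strands of the 250 bases before and 50 bases after the start were searched, and no match lay in the Nox4 window. Promoters were available for 4 of the 8 genes (Cybb, Cyba, Ncf1 and Nox4), and Cybb was the 1 that held the motif. The letters occur in 9289 of 32851 RefSeq promoters (28.3%), so a match is a description of the sequence only, and binding was not tested.

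The clearest difference in the set was in the catalytic subunit and in the proton channel, which were both higher in SRF by about the same factor. Of the 8 genes, 0 were called by edgeR's quasi-likelihood test (0% of the genes tested), and Cybb and Hvcn1, 2 of the 8, were called higher by DESeq2 (0.803% of the genes tested). Cybb, Cyba, Ncf1 and Hvcn1, 4 of the 8, were higher in SRF at an unadjusted edgeR p under 0.05 and a log2 difference of 0.5 or more, against 2.9% of the genes tested. The log2 fold change was above 0 in 7 of the 8, with a median of 0.65, against 50.3% of the genes tested. In 5 of the 8, these 4 and Rac2, every SRF library lay above every control library, against 6.71% of the genes tested. The groups overlapped in Ncf4, Rac1 and Nox4.

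**Figure D1:**
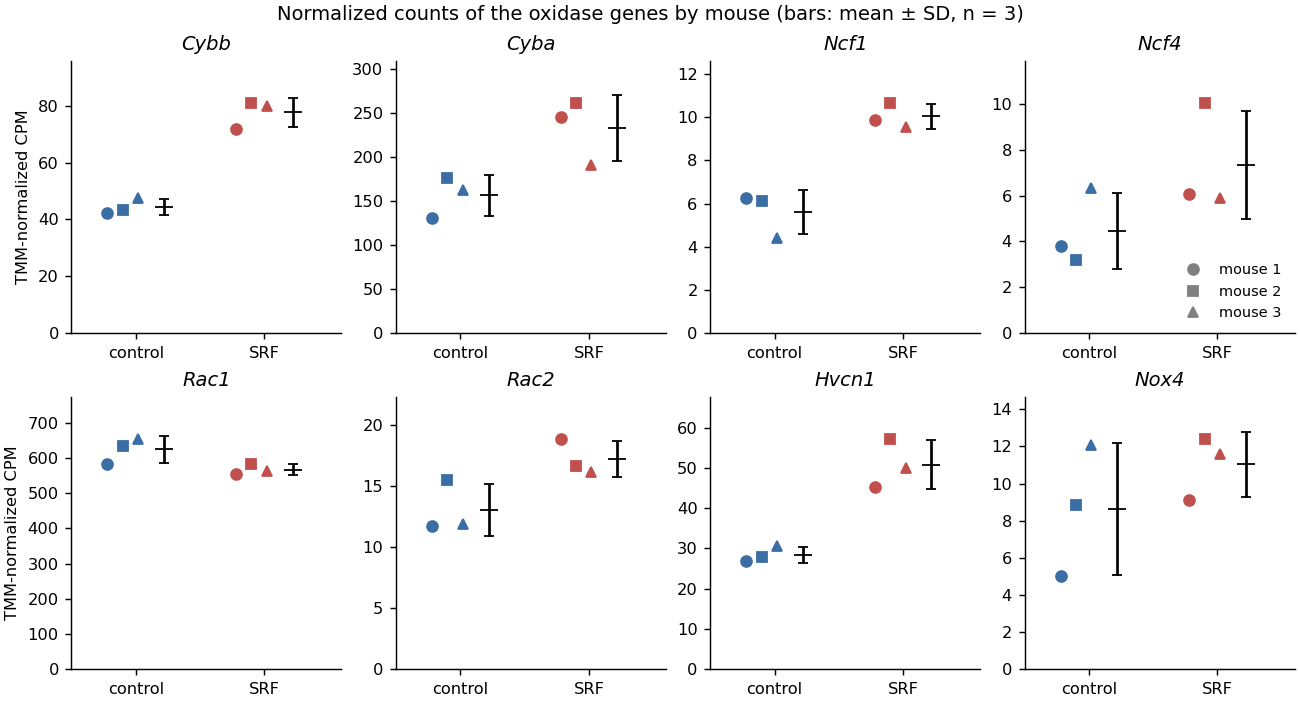
Level of each of the 8 genes in CPM (vertical axes, each starting at 0) in the control and SRF libraries; points are mice, marked by mouse number, and bars are group means with the SD (n = 3). The SRF libraries of Cybb (72.0 to 81.2 CPM) lie above its control libraries (42.3 to 47.6 CPM), while the groups of Ncf4, Rac1 and Nox4 overlap.

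Cybb (ENSMUSG00000015340, GRCm38 X:9435252-9487771, minus strand) had 42.3, 43.2 and 47.6 CPM in control mice 1, 2 and 3, and 72.0, 81.2 and 79.9 CPM in SRF mice 1, 2 and 3. All 3 SRF libraries were above all 3 control libraries, and the gap between the groups was wider than the spread within either. The mean was 44.4 ± 2.86 CPM in control and 77.7 ± 5.001 CPM in SRF (SD, n = 3), a ratio of 1.75. The log2 fold change was 0.81 (SE 0.11, 95% interval 0.54 to 1.07), with an adjusted p of 0.198 in edgeR's quasi-likelihood test (Benjamini-Hochberg) and of 9.54e-06 in DESeq2. With single mice left out, the adjusted p from edgeR was 0.163 without SRF mouse 3 and higher in the other fits. Without control mouse 1 and SRF mouse 3, which takes a mouse from each group, the log2 fold change was 0.75. The adjusted p from edgeR was then 0.0425. The difference was thus nearly as large without the photoreceptor-rich libraries as with them.

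Cyba (ENSMUSG00000006519, 8:122424776-122432930, minus strand), which the NOX2 and NOX4 proteins share as partner, had 130.6, 175.6 and 162.8 CPM in the control mice and 245.6, 261.7 and 191.1 CPM in the SRF mice. The groups did not overlap, but SRF mouse 3 lay close to the highest control. Its log2 fold change was 0.57 (SE 0.17, 95% interval 0.17 to 0.98), with an adjusted p of 0.465 in edgeR's quasi-likelihood test (Benjamini-Hochberg) and of 0.116 in DESeq2. Its place past the unadjusted limits rested on 2 libraries, since the log2 fold change was 0.46 without control mouse 1 and 0.48 without SRF mouse 2, both under the limit of 0.5. Without SRF mouse 3 it was 0.69 in DESeq2, which then called it (Benjamini-Hochberg adjusted p = 0.00438).

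Among the cytosolic subunits, Ncf1 (ENSMUSG00000015950, 5:134220053-134229625, minus strand), which organises the complex, was measured at low counts, 84 to 192 per library. It had 6.25, 6.13 and 4.42 CPM in control and 9.90, 10.7 and 9.58 CPM in SRF, and all 3 SRF libraries were above all controls. The log2 fold change was 0.85 (SE 0.22, 95% interval 0.32 to 1.37), with an adjusted p of 0.413 in edgeR's quasi-likelihood test and of 0.104 in DESeq2 (Benjamini-Hochberg). The point estimate was the largest of the 8 genes and had a standard error above those of Cybb and Hvcn1.

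Ncf4 (ENSMUSG00000071715, 15:78244801-78262580, plus strand), whose protein binds a phosphoinositide of the phagosome membrane, had 51 to 181 counts per library. Its level was 3.80, 3.20 and 6.34 CPM in control and 6.06, 10.1 and 5.88 CPM in SRF. Control mouse 3 lay above SRF mice 1 and 3, so the groups overlapped. The log2 fold change of 0.72 (SE 0.37, 95% interval -0.15 to 1.59) had an unadjusted edgeR p of 0.0922 and an adjusted p of 0.802 (Benjamini-Hochberg), and a difference could not be shown at this depth and spread. The value was 0.42 without SRF mouse 2 and 1.07 without control mouse 3.

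Hvcn1 (ENSMUSG00000064267, 5:122206804-122242297, plus strand) had 26.8, 27.8 and 30.6 CPM in control and 45.3, 57.4 and 50.02 CPM in SRF, without overlap. The means were 28.4 ± 1.98 and 50.9 ± 6.07 CPM (SD, n = 3). The log2 fold change of 0.84 (SE 0.13, 95% interval 0.53 to 1.15) had an adjusted p of 0.198 in edgeR's quasi-likelihood test (Benjamini-Hochberg) and of 0.000333 in DESeq2. DESeq2 called Cybb and Hvcn1 whichever single mouse was left out, and edgeR called neither in any of these fits.

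**Figure D2:**
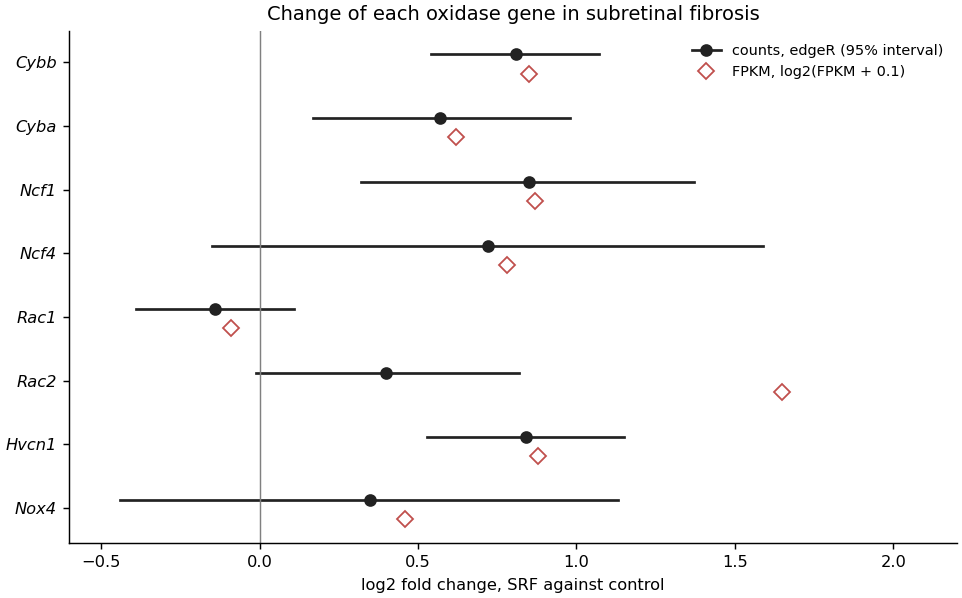
log2 fold change of SRF against control (horizontal axis) for the 8 genes; filled circles with lines are edgeR estimates from counts with the 95% interval, and open diamonds are differences of log2(FPKM + 0.1). The intervals of Cybb, Cyba, Ncf1 and Hvcn1 lie above 0, and the diamond of Rac2 at 1.65 lies far from its circle at 0.40.

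The genes whose profile was most like that of Cybb were sought by the root mean square difference of centred log2 CPM over the 6 libraries. Of all genes tested the nearest were Ly86 (0.054), Hvcn1 (0.058), Cd53 (0.0751), Rftn1 (0.0778) and Alox5ap (0.0817). Hvcn1 was thus the second nearest gene to Cybb, and Cybb was the third nearest to Hvcn1. The other genes of the set were further away, at rank 165 for Ncf1, 243 for Cyba, 571 for Rac2, 943 for Ncf4, 2286 for Nox4 and 7009 for Rac1. These ranks rest on 6 libraries and are given as a description.

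Neither of the 2 GTPases passed the test. Rac1 (ENSMUSG00000001847, 5:143503634-143528036, minus strand), which is made by most cells and has many roles beyond the oxidase, had 583.6, 635.2 and 655.8 CPM in control and 554.4, 583.9 and 563.3 CPM in SRF. The ranges overlapped only at control mouse 1 and SRF mouse 2, and the log2 fold change of -0.14 (SE 0.10, 95% interval -0.39 to 0.11) did not pass the test (edgeR unadjusted p = 0.224). Rac2 (ENSMUSG00000033220, 15:78559167-78572783, minus strand), the form of blood cells, had 11.7, 15.5 and 11.9 CPM in control and 18.9, 16.7 and 16.1 CPM in SRF. Every SRF library was above every control, but control mouse 2 was close to the lowest SRF value.

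From counts, the log2 fold change of Rac2 was 0.40 (SE 0.17, 95% interval -0.01 to 0.82), with an unadjusted edgeR p of 0.0525 and an adjusted p of 0.722 (Benjamini-Hochberg). The log2 ratio of Rac2 to Rac1 in CPM was -5.64, -5.36 and -5.79 in control and -4.88, -5.13 and -5.13 in SRF. The SRF libraries were all higher, by 0.55 on average, with the smallest p that 3 mice against 3 allow (exact permutation test, two-sided, p = 0.1).

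The FPKM values of Rac2 differed between the groups far more than its counts did. FPKM scales reads by transcript length and library size, and for Rac2 it was 4.24, 4.97 and 3.84 in control and 15.18, 14.56 and 11.86 in SRF. The mean went from 4.35 ± 0.573 to 13.9 ± 1.77 FPKM (SD, n = 3), a ratio of 3.19, while the ratio of the mean CPM was 1.32. On log2(FPKM + 0.1) the difference was 1.65, with an adjusted p of 0.0792 (limma, Benjamini-Hochberg).

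The length that the authors' FPKM implies for each gene was computed from the count, the FPKM and the total count of the library. For Rac2 it was 2.71, 3.04 and 3.04 kb in control mice 1, 2 and 3, and 1.26, 1.17 and 1.37 kb in SRF mice 1, 2 and 3. In the other 7 genes the implied length was nearly constant, for example 4.75 to 4.76 kb for Cybb, 2.64 to 2.67 kb for Rac1 and 3.68 to 3.75 kb for Nox4. GENCODE M21 lists 3 transcripts of Rac2, of 3038, 459 and 254 bases, so the 2 higher control values match the longest of them.

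The log2 counts per FPKM of Rac2, relative to the median of its library, fell by 1.20 from control to SRF. Of the 13454 genes tested 0 moved further, the median absolute shift was 0.0129, the 99th percentile was 0.327, and the largest among the other 7 genes of the set was 0.015. With Rac2 included, 2 of the 13454 genes (0.0149%) moved by at least 1 without overlap of the groups. The cause of this shift was not tested. The size of the Rac2 difference therefore depends on the unit, and the value from counts is the smaller.

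**Figure D3:**
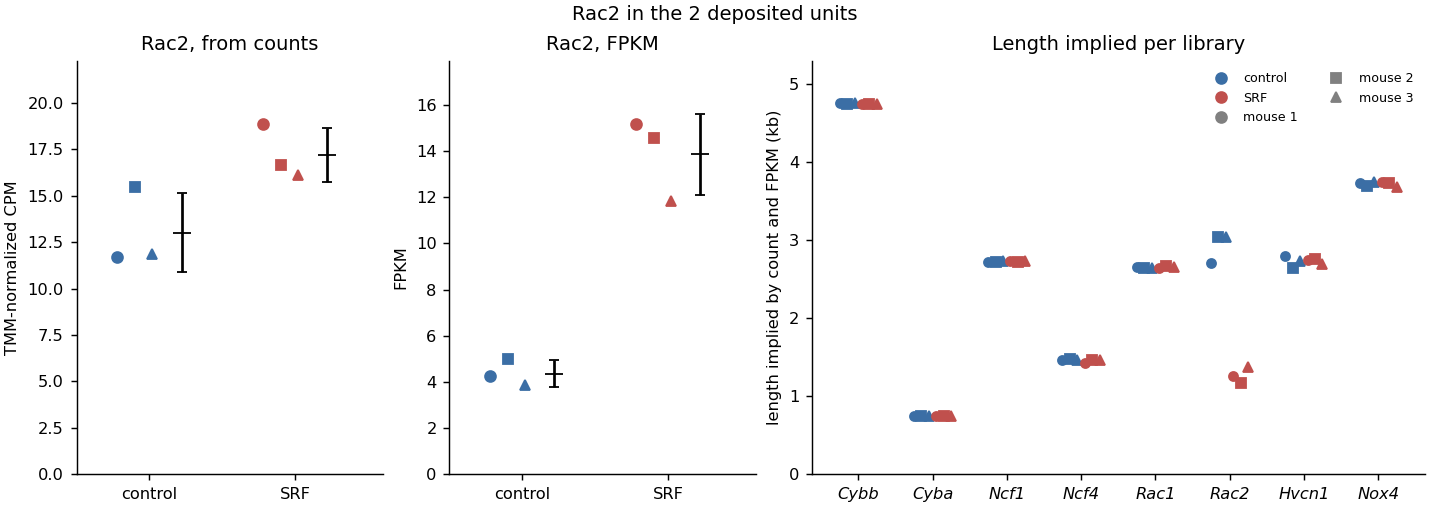
Rac2 by mouse in 3 measures (vertical axes): CPM from counts, deposited FPKM, and the length in kb implied by count, FPKM and library total. The SRF mice lie above the controls by a factor of 1.32 in mean CPM and of 3.19 in mean FPKM, and the implied length drops from 2.71 to 3.04 kb in control to 1.17 to 1.37 kb in SRF.

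Nox4 (ENSMUSG00000030562, 7:87246096-87398710, plus strand) had 4.99, 8.84 and 12.1 CPM in control and 9.08, 12.4 and 11.6 CPM in SRF. The control libraries covered nearly the whole range of the SRF libraries. The log2 fold change was 0.35 (SE 0.33, 95% interval -0.44 to 1.13), with an unadjusted edgeR p of 0.329 and an adjusted p of 0.962 (Benjamini-Hochberg). The interval holds both no change and the value of Cybb.

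The Nox4 estimate turned on control mice 1 and 3, which had the lowest and the highest Nox4 level of the controls. Of these, control mouse 1 was a photoreceptor-rich library and control mouse 3 was not. The estimate was 0.08 without control mouse 1, 0.03 without control mouse 1 and SRF mouse 3, and 0.67 without control mouse 3. With a photoreceptor score as a covariate in the edgeR fit of all 6 libraries the log2 fold change was 0.37. The genes with the profile most like that of Nox4 over the 6 libraries were Gas6 (root mean square difference 0.0472), Gpr137b (0.0699), Shisa2 (0.0788), P3h2 (0.084) and Plekhf1 (0.0844).

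The contrast of the phagocyte genes with Nox4 was tested as the log2 ratio of each gene to Nox4 within a library. For Cybb the ratio was 3.08, 2.29 and 1.98 in control and 2.99, 2.71 and 2.79 in SRF. The groups overlapped because control mouse 1 had the highest ratio of all 6, and the mean difference was 0.37 (exact permutation test, two-sided, p = 0.4, unadjusted, 1 of 7 ratios). For Hvcn1 it was 0.40 and for Ncf1 0.43, with exact permutation p of 0.4 and 0.5. The differences were 0.31 for Ncf4, 0.14 for Cyba, -0.02 for Rac2 and -0.57 for Rac1, and the groups overlapped in all 7 ratios. A difference in change between any of these genes and Nox4 was therefore not shown in these libraries, and with 3 mice against 3 no p under 0.1 was possible.

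Without control mouse 1 and SRF mouse 3 the mean differences to Nox4 were 0.71 for Cybb, 0.76 for Hvcn1, 0.94 for Ncf1, 0.75 for Ncf4, 0.54 for Cyba, 0.35 for Rac2 and -0.22 for Rac1. Single mice moved these differences either way. For Cybb the value was 0.69 without control mouse 1 and 0.14 without control mouse 3, and for Hvcn1 0.71 and 0.17 without the same mice. For Ncf4 it was 0.57 without control mouse 1, 0.04 without control mouse 2 and 0.15 without SRF mouse 2, and for Rac1 -0.27 without control mouse 1. Leaving out control mouse 3 turned the sign for Cyba (-0.11) and Ncf1 (-0.02), as leaving out SRF mouse 1 did for Cyba (-0.04). The Rac2 ratio was so close to 0 that leaving out any of 4 mice turned its sign, within -0.37 to 0.26 over all 6.

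Levels were compared between genes on the FPKM scale only, which corrects for length. In control the order by mean FPKM was Rac1 (231), Cyba (207), Hvcn1 (10.2), Cybb (9.16), Rac2 (4.35), Ncf4 (2.98), Nox4 (2.27) and Ncf1 (2.02). Rac1 and Cyba overlapped there, as did Hvcn1 and Cybb, Rac2 and Ncf4, and Ncf4, Nox4 and Ncf1 among each other. In SRF the order was Cyba (319), Rac1 (217), Hvcn1 (18.9), Cybb (16.6), Rac2 (13.9), Ncf4 (5.13), Ncf1 (3.74) and Nox4 (3.01). Hvcn1 and Cybb overlapped again. The place of Rac2 in SRF rests on the short implied length. With the longest transcript as its length in every library, a choice made after the values were seen, it had 3.78 to 4.97 in control and a mean of 5.75 in SRF (reads per kb, scaled to library size), and the SRF libraries (5.35 to 6.29) lay within the range of Ncf4 (4.05 to 7.05). Cyba lay above Rac1 in every SRF library, and Ncf1 (3.54 to 4.02) above Nox4 (2.45 to 3.41). The transcript of the shared partner Cyba was thus far more abundant than that of either catalytic subunit in both groups.

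Most macrophage and pan-leukocyte marker genes were higher in SRF, as most of the oxidase genes were. Of 22 macrophage markers, 13 were higher past the unadjusted limits, against 2.9% of the genes tested. A positive log2 fold change was seen in 20, against 50.3% of the genes tested. Their median log2 fold change was 0.78 (range -0.11 to 1.61), against 0.00 over all genes tested and the 0.65 of the oxidase genes. Their summed level was 1837 to 2331 CPM in control and 4145 to 5900 CPM in SRF. For 10 pan-leukocyte markers it was 180.5 to 227.8 CPM in control and 288.6 to 365.7 CPM in SRF. In bulk tissue, more cells of a type and more RNA per cell cannot be told apart.

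Not every macrophage marker was higher, as Csf1r (log2 fold change -0.03), Itgam (0.03) and Mertk (-0.11) were near 0. Neutrophils also carry the oxidase, but of 12 neutrophil markers the defining Ly6g, Elane and Ngp were not listed, and the sum of those listed was 19.7 to 29.0 CPM in control and 23.4 to 25.0 CPM in SRF. Of 5 neutrophil markers tested, 1 was higher past the unadjusted limits, Csf3r, the receptor of G-CSF, with a log2 fold change of 0.90 (edgeR unadjusted p = 0.0438) and overlapping groups. Mast cell markers (4 of 5 tested higher past the unadjusted limits) summed to 39.2 to 44.8 CPM in control and 61.8 to 70.7 CPM in SRF, and B cell markers (1 of 4) to 34.1 to 44.9 and 49.4 to 62.4 CPM. T cell markers (0 of 2) summed to 17.3 to 20.7 CPM in control and 11.1 to 16.6 CPM in SRF. Over all genes tested, 2.9% were higher past these limits. RPE markers went the other way, with 4 of 12 lower past the unadjusted limits, against 1.02% of the genes tested. The part of any of these cells in the oxidase values was not tested.

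Set against the summed macrophage markers within each library, Cybb was lower in SRF by a log2 ratio of -0.34 and Hvcn1 of -0.31, and the groups did not overlap in either (exact permutation test, two-sided, p = 0.1, unadjusted, 2 of 8 ratios). Rac1 showed the largest such difference, -1.28, with Rac2 at -0.73, Nox4 at -0.71, Cyba at -0.57, Ncf4 at -0.41 and Ncf1 at -0.29. The marker sum was itself higher in SRF by 1.15 (log2), so a gene that did not change falls by that much. The share of all genes tested that lay lower without overlap was not computed. Lyz2 and Ctss made up a large part of that sum and had log2 fold changes of 1.49 and 1.61, so the ratio was taken in other ways too. Without those 2 genes, a choice made after the values were seen, the difference was 0.14 for Cybb, 0.17 for Hvcn1, 0.19 for Ncf1, 0.07 for Ncf4, -0.09 for Cyba, -0.23 for Nox4, -0.25 for Rac2 and -0.80 for Rac1.

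Against the pan-leukocyte markers the differences were 0.11 for Cybb, 0.14 for Hvcn1, 0.16 for Ncf1, 0.04 for Ncf4, -0.12 for Cyba, -0.26 for Nox4, -0.28 for Rac2 and -0.83 for Rac1. Per unit of pan-leukocyte marker, Cybb, Ncf1, Ncf4 and Cyba overlapped between the groups, and the Hvcn1 groups lay apart by a small margin (exact permutation test, two-sided, p = 0.1). Rac1 alone of the 8 was lower in every SRF library than in every control against each of these measures. The marker levels were themselves higher in SRF, by 0.69 (log2) for the pan-leukocyte markers and 0.66 for the macrophage sum without Lyz2 and Ctss. A gene with little change of its own, such as Rac1 (log2 fold change -0.14), therefore falls against all of them.

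**Figure D4:**
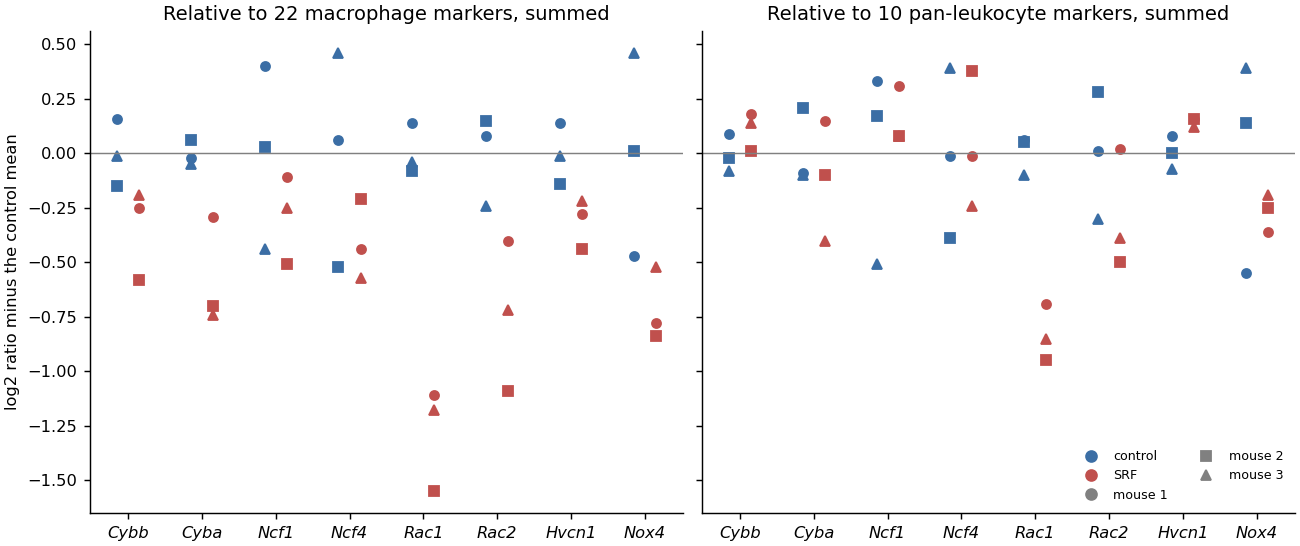
log2 ratio of each gene to summed marker CPM, minus its control mean (vertical axis), for the 8 genes (horizontal axis); the left panel uses 22 macrophage markers, the right panel 10 pan-leukocyte markers, colours are groups and shapes are mouse numbers. In the left panel the SRF libraries of 6 genes lie below their controls, while in the right panel Cybb, Hvcn1, Ncf1 and Ncf4 lie around 0 and Rac1 near -0.83. The summed macrophage markers were themselves higher in SRF by 1.15 (log2), so a gene without change also lies below its controls there.

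Of 22 other genes that assemble the oxidase or signal to it, 21 were tested and Rac3 had too few counts. Of the 21, 17 had a positive log2 fold change, with a median of 0.25 (range -0.18 to 1.19), and 2 were higher past the unadjusted limits, against 50.3% above 0 and 2.9% past the limits over all genes tested. The count of 2 was 1 without control mouse 2 or SRF mouse 2 and 3 without control mouse 1, control mouse 3 or SRF mouse 3, so it turned on single libraries. Vav1, a blood cell exchange factor for Rac, had 3.05, 3.58 and 4.21 CPM in control and 6.65, 9.47 and 8.74 CPM in SRF. Its log2 fold change was 1.19 (SE 0.26), with an adjusted p of 0.311 in edgeR's quasi-likelihood test and of 0.0302 in DESeq2 (Benjamini-Hochberg). Pik3r5, a regulatory subunit of phosphoinositide 3-kinase gamma, had a log2 fold change of 0.87 (SE 0.32, edgeR unadjusted p = 0.0283).

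The most abundant genes of the same list did not pass these limits. On the log2 scale the change was -0.08 for Prdx6, 0.06 for Arhgdia, 0.13 for Arhgdib and -0.18 for Rap1a, of which Arhgdia and Arhgdib encode inhibitors that hold small GTPases in the cytosol.

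Among the other NADPH oxidases and their partners, Nox1, Nox3 and Noxa1 were not listed. Of the 6 listed, 3 were tested and 0 passed the unadjusted limits in either direction. Poldip2, described as a NOX4 partner, had a log2 fold change of -0.11 (SE 0.11), Noxo1, an organiser for NOX1, 0.27 (SE 0.40), and Duoxa1, the maturation factor of DUOX1, -0.76 (SE 0.75). Duox1, Duox2 and Duoxa2 were too low to be tested. Cybb and Nox4 were thus the 2 catalytic NOX subunits with enough counts to compare.

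Genes that handle the products of the oxidase were also read. Of 16 genes for superoxide and peroxide handling, Mpo and Epx were not listed and the other 14 were tested, of which 0 passed the unadjusted limits. Their median log2 fold change was 0.10 (range -0.38 to 0.30), and 8 of 14 were above 0. The most abundant were Gpx4 (log2 fold change 0.27), Gpx3 (0.15), Sod1 (-0.38) and Prdx1 (-0.01), all of which reduce peroxides except Sod1, the cytosolic superoxide dismutase. The groups were apart with SRF lower in 3 of the 14 (6.43% of the genes tested), namely Sod1 (edgeR unadjusted p = 0.0544), mitochondrial Sod2 (-0.25, edgeR unadjusted p = 0.0631) and catalase, Cat (-0.21, edgeR unadjusted p = 0.11). Sod2 and Cat were named after their values were seen.

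Cyba, Ncf1, Rac1 and Hvcn1 overlap a listed gene on the opposite strand, namely Gm20388, Gtf2ird2, Daglb and Tctn1 in this order. Rac1 also overlaps Gm42502 on that strand, which is annotated but not among the listed genes. Whether the counting used strand is not given in the sources used here, so reads of these 4 and of their partners cannot be told apart where they overlap. Cybb, Ncf4, Rac2 and Nox4 have no overlapping gene in GENCODE M21.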

How the data were processed

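RNA-seq of RPE-choroid from 3 control and 3 SRF mice was used. The authors filtered the reads and counted them per gene with StringTie, and deposited whole, unnormalized counts for each library. The deposited FPKM values are the authors' counts per transcript length and mapped reads. The aligner, build, annotation and strandedness are not given in the sources used here. Every listed gene had at least 1 count in each library. Positions came from GENCODE M21 on GRCm38, where 15659 of 15663 identifiers were found, and promoters from RefSeq on GRCm38.p6.

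Genes that had over 50 counts in 2 or more libraries were tested with edgeR 4.0.16 (R 4.3.3, TMM, glmQLFit, glmQLFTest, group as the only term) and Benjamini-Hochberg adjustment over 13454 genes. The median standard error was 0.19 on the log2 scale. Calls needed an adjusted p under 0.05 and an absolute log2 fold change of 0.5 or more. Ratios were tested by exact two-sided permutation. Levels are TMM-normalized CPM unless FPKM is named. Fits were tested on simulated data. As alternatives, DESeq2 1.42.0 was run on counts, and limma 3.58.1 was run on counts and, separately, on FPKM with 0.1 or 1 added before taking log2. Further alternatives were other filters and normalizations, a replicate block, a photoreceptor term and leaving out mice.

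All 8 genes were named. From each list of related genes, those past the unadjusted limits were named, with up to 4 of the highest mean FPKM, and for Cybb and Nox4 the 5 nearest genes. The genes and lists were chosen with earlier results of these data known. The study's methods speak of 3 mice per group, and the p-values set the difference between groups against the variation between these samples. Values were computed for a few more items than the text names, and these are not reported here.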

Additional observations from a re-analysis of the deposited data

How the results depend on the processing

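Each change was refitted under 26 alternatives, and the direction of all 8 genes held in every one. The number called, 0 in the main analysis, was 2 with DESeq2 (Cybb 0.80, Hvcn1 0.83), against 0.803% of the genes tested called higher. With DESeq2 and each mouse left out it was 2 to 3. Without control mouse 1 and SRF mouse 3 it was 1 with edgeR (Cybb 0.75) and 3 with DESeq2 (Cybb 0.74, Hvcn1 0.80, Cyba 0.58). For the other refits the share over all genes tested was not computed, so their counts cannot be set against it. With DESeq2 and single mice left out, Cybb ran from 0.77 to 0.86 (0.78 without control mouse 2 or SRF mouse 3), Cyba from 0.45 to 0.69, and Hvcn1 from 0.74 to 0.91 (0.79, 0.82 and 0.90 without control mouse 1, 2 or 3, and 0.84 without SRF mouse 3). The number past the unadjusted limits, 4, stayed between 3 and 6, and the 6 came from FPKM, which added Rac2 and Ncf4. The oxidase assembly list, with 2 genes past these limits, had 1 with limma on log2(FPKM + 1). With a mouse left out it had 1 to 3 in edgeR and 1 to 5 in DESeq2. Without control mouse 1 and SRF mouse 3 it had 5 in edgeR and 3 in DESeq2. The other oxidases, with 0, had 0 to 1 with a mouse left out, and without both of these mice 1 in edgeR and 0 in DESeq2. The causes were not tested.

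Ratios close to 0 changed sign. Relative to Nox4, leaving out single mice gave -0.11 to 0.37 for Cyba, -0.02 to 0.87 for Ncf1 and -0.37 to 0.26 for Rac2, and Rac2 was 1.19 on FPKM and 0.35 without control mouse 1 and SRF mouse 3, which gave 0.54 for Cyba and 0.94 for Ncf1. Relative to macrophage markers, the negative differences of Cybb, Ncf1, Ncf4 and Hvcn1 became 0.12, 0.18, 0.06 and 0.15 with the mean log2 CPM of the markers. With pan-leukocyte markers they were 0.11, 0.16, 0.04 and 0.14, and without Lyz2 and Ctss 0.14, 0.19, 0.07 and 0.17. Rac2 became 0.44 on FPKM.

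Mice of the same number are different animals, and the numbers did not pair them (correlation of deviations -0.47, 0.50 and -0.28, and not every library matched its own number best). A replicate block left 0 genes of the set called by edgeR and 4 past the unadjusted limits, and 1 of the assembly list. With DESeq2 and the block 2 were called (Cybb 0.80, Hvcn1 0.83), and 1 of the assembly list passed the limits. The DESeq2 fits with mice left out or with the block, the fits without both photoreceptor-rich libraries in DESeq2 or in ratios, the counts per FPKM, the fixed Rac2 length and the marker sum without Lyz2 and Ctss were chosen after seeing the data. The 3 mice per group and low counts limit Ncf1, Ncf4 and Nox4 most.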
